A study of Mus musculus with 33 samples.

Results

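The comparison described here was between mouse cultures held for 4 days with CD1530, which activates the gamma type of retinoic acid receptor (RARγ), and cultures held for the same time with AGN 193109 (AGN), which acts on these receptors as an inverse agonist. Its members were all libraries whose labels give day 4 (D4) and either ligand, 6 of the 33 libraries in the series, with 3 replicates in each condition. The cultures came from mouse embryonic stem cells that carry the tendon reporter ScxGFP, which had first been made into embryoid bodies and then into paraxial mesoderm (PM), the embryonic tissue that forms the somites. Both conditions shared that history, with the BMP inhibitor LDN-193189 and the Wnt pathway activator CHIR. In its enhanced form the PM step also contained AGN or all-trans retinoic acid, and the study's account points to AGN for the sequenced cultures, although the labels do not name it. From then on both were grown as monolayers with FGF2, TGFβ1 and the smoothened agonist SAG, so that only the retinoid ligand was meant to differ. The study used the CD1530 medium to derive tendon cells and the AGN medium to derive fibrocartilage cells. The ligands were given at different concentrations, no group among these libraries received the shared factors without a ligand, and the cultures were not sorted. A difference between the conditions therefore cannot be assigned to the agonist or to the inverse agonist. The 3 PM libraries and the 6 libraries at 2.5 days (D2.5) are used below for starting levels and for a test of change over time.

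Retinoic acid receptors sit on DNA as partners of the retinoid X receptors. Without ligand, or with an inverse agonist, they hold corepressors at their target genes, and an agonist exchanges these for coactivators. Vertebrate embryos keep retinoic acid in check with enzymes that the receptors themselves induce, and they read its level to set the position of cells along the body axis through Hox genes. In skeletal mesenchyme, retinoid signalling is known to hold back cartilage formation.

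The CD1530 libraries held 19155802 to 21259393 counts and the AGN libraries 17725489 to 18450336 counts. Values are counts per 1000000 counts after TMM scaling (CPM), and the 3 counts taken here as the counting floor correspond to 0.152 to 0.188 CPM. Mitochondrial genes took 1.06 to 1.17% of counts with CD1530 and 0.840 to 0.924% with AGN, so this share differed without overlap, and its part in the results was not tested. The tendon factor Scx was at 858 ± 17.4 CPM with CD1530 and 1223 ± 27.8 CPM with AGN (mean ± SD, n = 3), against 6.41 ± 0.852 CPM in PM. The cartilage collagen Col2a1 was at 145 ± 4.38 and 2497 ± 69.4 CPM. Marker genes of other cell types were also read in these unsorted cultures and are given below. In bulk RNA, fewer cells of a type and less RNA per cell cannot be told apart.

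Of 17120 genes tested, 7980 (46.6%) differed between the conditions at an adjusted p under 0.05 in edgeR's quasi-likelihood test, here referred to as called. With CD1530, 3878 genes (22.7%) were higher and 4102 (24%) lower. The more abundant direction is not a stable count, since scaling by library size alone called 4450 higher and 3495 lower. Most called differences were small. The median absolute log2 fold change of called genes was 0.44, and 6137 called genes differed by less than 2-fold. At least 2-fold differences were called for 1031 genes (6.02%) higher and 812 (4.74%) lower, and 199 and 106 of these reached 8-fold. The libraries of the conditions did not overlap for 57% of all genes, with CD1530 above AGN for 27.4% and below it for 29.6%. Fold changes are CD1530 over AGN throughout and are written as log2FC, and their median over all genes was -0.02. The value after ± is an approximate standard error (SE), the absolute log2FC divided by the square root of the test's F. Where a condition holds few counts it can be smaller than counting error alone, as for Cyp26a1 and T below. Paired values in brackets are means ± SD of 3 libraries, CD1530 against AGN. Each group of genes below is described by how many of its tested members were called, to be read against 22.7% higher and 24% lower over all genes, and by its median log2FC.

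**Figure D1:**
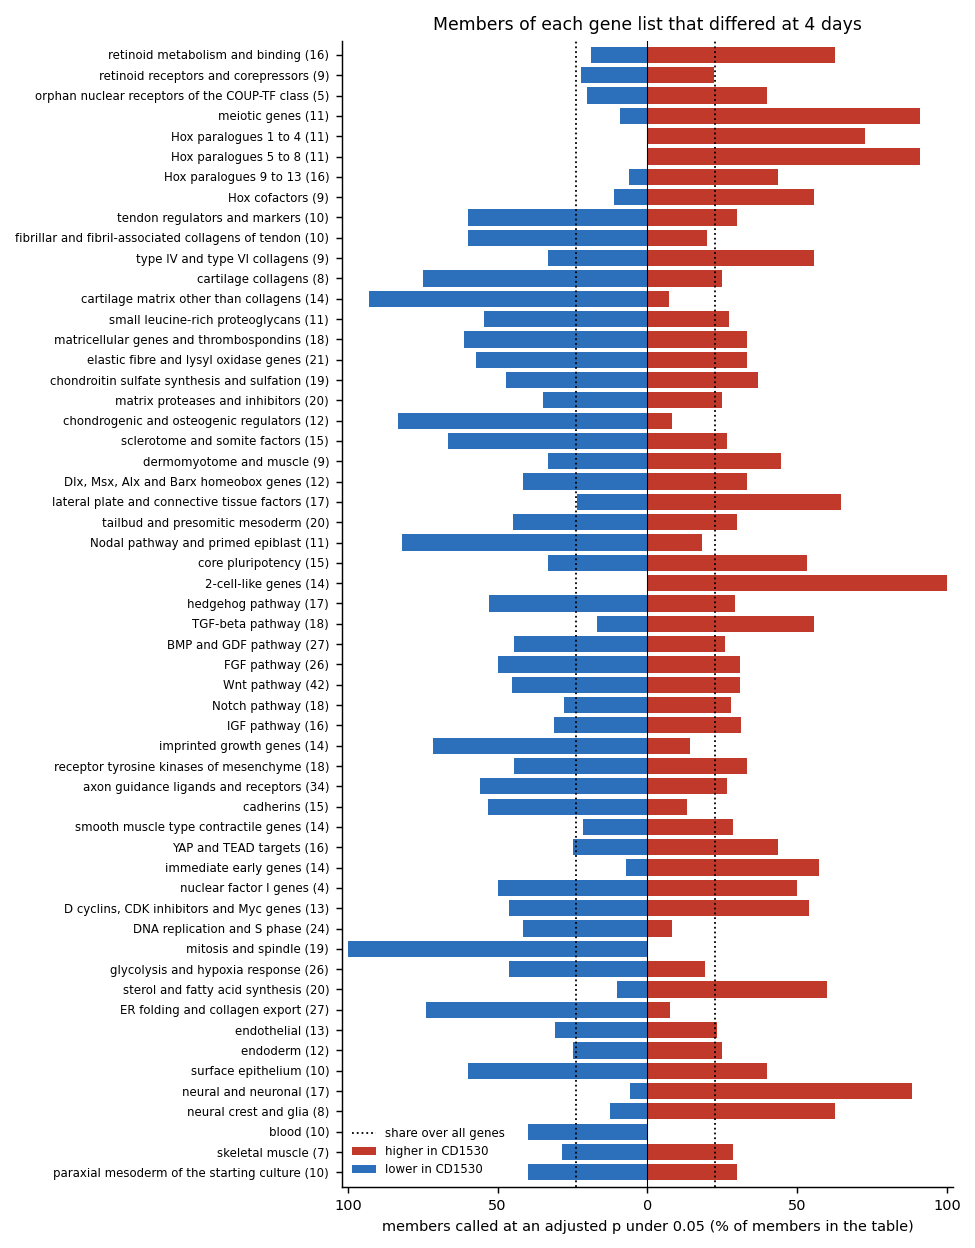
Share of the members of each of 56 gene lists called higher (red, to the right) or lower (blue, to the left) with CD1530 than with AGN at 4 days, in percent of the members tested (their number in brackets). Dotted lines mark the shares over all genes, 22.7% higher and 24% lower. All 14 genes of the 2-cell-like list were higher and all 19 genes of mitosis and spindle were lower.

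Genes of the retinoid pathway itself held some of the largest differences. Cyp26a1, the cytochrome P450 that breaks down retinoic acid, and Rarb, which encodes the retinoic acid receptor beta, are both known to be induced through a direct repeat of the receptors' 6-base recognition motif close to the start of the gene. That motif was searched here as AGGTCA, the variant AGTTCA, the variant GGGTCA and the variant GGTTCA, repeated in the same direction with a spacer of 5 bases (DR5), 2 bases (DR2) or 1 base (DR1), on both strands. Both promoters are shown because they are the called retinoid, Hox and meiotic genes that held a DR5. The sequences are from RefSeq on GRCm38.p6, hold the 110 bases upstream of the gene's start on the strand of the gene, and carry the repeat in capitals.
Cyp26a1, chr19:37697698-37697807, plus strand: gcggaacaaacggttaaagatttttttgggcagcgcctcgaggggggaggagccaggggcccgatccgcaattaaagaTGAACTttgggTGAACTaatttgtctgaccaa
Rarb, chr14:16575477-16575586, minus strand: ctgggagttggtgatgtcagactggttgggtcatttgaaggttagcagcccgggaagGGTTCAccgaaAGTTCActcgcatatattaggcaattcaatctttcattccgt
In Rarb the repeat lay 53 to 37 bases upstream of the start and read in the direction of the gene. In Cyp26a1 it lay 32 to 16 bases upstream and read on the opposite strand, so that the capitals are the reverse complement of the motif.

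A DR5 was rare in the 250 bases upstream of a gene. Of 11699 tested genes with a RefSeq promoter, 7 (0.0598%) held one. Among genes called at least 2-fold higher with CD1530, 3 of 709 (0.423%) held it, namely Cyp26a1, Rarb and Prokr2, a prokineticin receptor (log2FC 2.15 ± 0.21). None of 576 genes called at least 2-fold lower did. The other 4 were Blvrb at a log2FC of -0.82 and Hbb-y at a log2FC of -0.45, both called lower, and Cfap45 at a log2FC of -0.25 and Syndig1 at a log2FC of -0.31, which were not called. DR2 and DR1 were found in 11 (0.094%) and 20 (0.171%) promoters, among them 2 and 2 of the 709 and 1 and 0 of the 576. Only 34 of the 54 called retinoid, Hox and meiotic genes had a promoter in the table. These are matches of letters in a short window, and the genes outside the retinoid group were named after their values were seen. Hbb-y was not called without CD1530 replicate 3 or AGN replicate 1 or 3 (adjusted p 0.166, 0.119 and 0.0796).

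Of 16 genes for retinoid metabolism and binding, 10 were higher, 3 lower and 3 not called, and the median was 0.92 (1.07 with genes at the counting floor set to their bound). Cyp26a1 read 163, 175 and 169.8 CPM in the CD1530 libraries and 2.75, 2.35 and 2.26 CPM in the AGN libraries (log2FC 6.11 ± 0.08, adjusted p 6.33e-41). Every CD1530 library was far above every AGN library, and the PM cultures were at 0.399 ± 0.180 CPM. Stra6, the cell surface receptor that takes up retinol from its carrier, read 384, 383 and 384 CPM in the CD1530 libraries and 11.7, 11.3 and 10.5 CPM in the AGN libraries (log2FC 5.10 ± 0.08, adjusted p 3.43e-37). Dhrs3, the reductase that returns retinaldehyde to retinol, read 239, 235 and 234 CPM in the CD1530 libraries and 8.19, 7.95 and 6.95 CPM in the AGN libraries (log2FC 4.94 ± 0.07, adjusted p 1.55e-38). In both genes the conditions were separated more than 20-fold, with AGN libraries close to each other. The related hydroxylases Cyp26b1 (139 ± 4.76 against 25.7 ± 0.379 CPM, log2FC 2.44) and Cyp26c1 (4.66 ± 0.925 against 0.286 ± 0.135 CPM, log2FC 4.01) were higher too, as was the cellular binding protein Crabp2 (log2FC 0.76).

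The enzymes that make retinoic acid did not move together. Aldh1a2, the main retinaldehyde dehydrogenase of the early embryo, was lower with CD1530, at 5.71, 4.29 and 4.61 CPM with CD1530 and 10.3, 11.02 and 11.8 CPM with AGN (log2FC -1.17 ± 0.11, adjusted p 5.21e-12). It had been at 31.4 ± 1.08 CPM in PM, above every library of either condition. Aldh1a3, another dehydrogenase of the same step, was higher at 268 ± 6.34 CPM with CD1530 and 124 ± 2.27 CPM with AGN (log2FC 1.11). The retinol dehydrogenases Rdh11 (log2FC -0.17) and Rdh12 (log2FC -0.79) were lower and Rdh10 (log2FC 0.25) higher. The difference was therefore positive for breakdown (Cyp26), return to retinol (Dhrs3) and uptake (Stra6), while the synthetic enzymes split between the conditions.

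Of 9 receptors and corepressors, 2 were higher and 2 lower (median -0.10). Rarb read 55.1, 53.3 and 60.2 CPM in the CD1530 libraries and 0.563, 1.45 and 1.37 CPM in the AGN libraries (log2FC 5.63 ± 0.14, adjusted p 8.15e-31). The lowest CD1530 library was above 50 CPM and the highest AGN library below 2 CPM, and PM was at 0.0636 ± 0.0732 CPM. Neither Rarg nor Rara, the other retinoic acid receptor genes, was called. Rarg, whose product is the target of CD1530, was at 130.1 ± 4.40 CPM with CD1530 and 133 ± 4.92 CPM with AGN (log2FC -0.03 ± 0.05, adjusted p 0.653), and Rara was at 96.4 ± 2.28 CPM with CD1530 and 103 ± 4.00 CPM with AGN (log2FC -0.10 ± 0.04, adjusted p 0.0517). Nrip1, a cofactor that ligand-bound nuclear receptors recruit as a brake, was higher (131 ± 5.20 against 56.4 ± 1.78 CPM, log2FC 1.22). Rxra, the alpha partner receptor, was lower (84.9 ± 1.13 against 136 ± 5.81 CPM, log2FC -0.68). Rxrb was called lower at a log2FC of -0.12 with overlapping libraries. That call was lost when CD1530 replicate 1 or 3 or AGN replicate 1 or 3 was left out (adjusted p 0.0745, 0.101, 0.0968 and 0.106). The corepressor gene Ncor1 (log2FC -0.12) was not called. Of 5 orphan receptors of the COUP-TF class and its relatives, Nr2f1 (25.5 ± 1.31 against 4.65 ± 0.272 CPM, log2FC 2.45) and Nr2f6 (log2FC 0.60) were higher and Nr2f2, the most abundant of them, was lower (log2FC -0.23), with a median of 0.18.

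Stra8, a gene named for its induction by retinoic acid and needed for germ cells to enter meiosis, had the largest fitted fold change of the genes named here. It read 200.1, 200.2 and 202 CPM in the CD1530 libraries and 0.188, 0.120 and 0.178 CPM in the AGN libraries. The 3 AGN libraries were at or near the counting floor, so its fold change is given as the ratio of summed counts at equal library size with its exact 95% interval in brackets, which covers counting error only. It was 1240.3 (629 to 2873) for CD1530 over AGN. Of 11 meiotic genes 10 were higher and 1 lower (median 1.32). Dazl, an RNA-binding protein of germ cells, was at 40.3 ± 1.51 CPM with CD1530 and 2.57 ± 0.0874 CPM with AGN (log2FC 3.97). Tex11, a protein of meiotic chromosomes, was at 5.78 ± 0.368 CPM with CD1530 and 0.812 ± 0.189 CPM with AGN (log2FC 2.83), and the meiotic cohesin Rec8 at 79.9 ± 0.479 CPM with CD1530 and 12.2 ± 1.12 CPM with AGN (log2FC 2.71). Dazl and Rec8 had been at 25.2 ± 1.76 and 20.01 ± 2.22 CPM in PM, so that for both the CD1530 mean was above PM and the AGN mean below it. Sycp3, a component of the synaptonemal complex, was the member that was lower (2.50 ± 0.411 against 5.65 ± 1.09 CPM, log2FC -1.18).

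**Figure D2:**
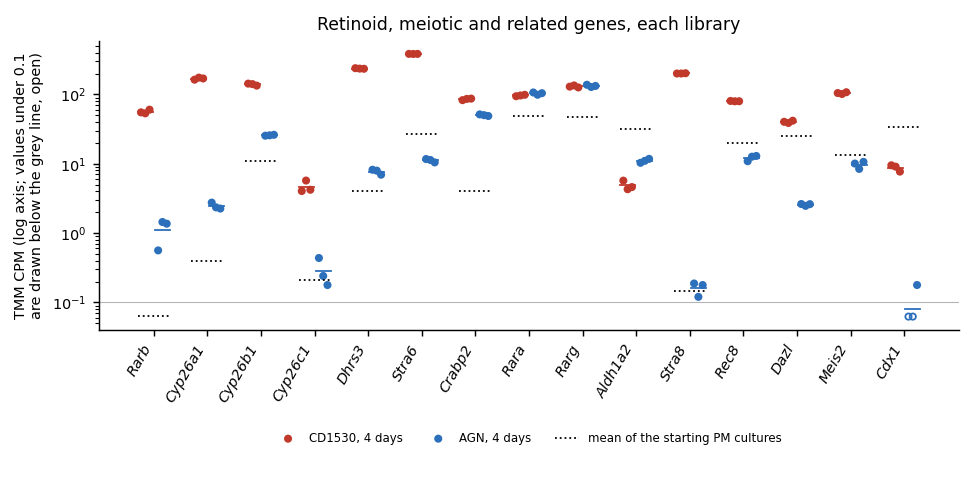
Level of 15 retinoid, meiotic and related genes in each library at 4 days, as TMM CPM on a log axis, for CD1530 (red) and AGN (blue), with short lines at the means of 3 libraries and a dotted line at the PM mean. Values under 0.1 CPM are drawn open below the grey line. The libraries of the conditions are apart for Rarb, Cyp26a1 and Stra8 and lie together for Rarg.

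Hox genes encode the transcription factors that mark position along the head to tail axis, and they lie in 4 clusters in which low paralogue numbers are expressed toward the head. Of 38 Hox genes tested, 25 were higher with CD1530, 1 was lower and 12 were not called. By paralogue group, 8 of 11 of paralogues 1 to 4 were higher and none lower (median 0.70), 10 of 11 of paralogues 5 to 8 were higher and none lower (median 1.49), and of 16 of paralogues 9 to 13, 7 were higher and 1 lower (median 0.61). Hoxb1 read 24.2, 24.4 and 25.3 CPM in the CD1530 libraries and 0, 0.120 and 0 CPM in the AGN libraries. The AGN libraries were at the floor, with a ratio of summed counts of 609 (168 to 5035), and PM was at 7.86 ± 0.425 CPM.

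Among the paralogues 5 to 8, Hoxa5 was the most abundant with CD1530 and read 92.2, 91.3 and 90.9 CPM in the CD1530 libraries and 8.75, 8.73 and 9.56 CPM in the AGN libraries (log2FC 3.34 ± 0.09, adjusted p 9.23e-30). All 3 CD1530 libraries were above all AGN libraries, and PM was at 3.91 ± 0.501 CPM. Hoxc5 (19.04 ± 0.817 against 1.49 ± 0.465 CPM, log2FC 3.66), Hoxc4 (18.9 ± 1.72 against 1.13 ± 0.205 CPM, log2FC 4.05) and Hoxb8 (38.1 ± 1.38 against 3.83 ± 0.809 CPM, log2FC 3.31) differed to a like degree. Toward the tail, Hoxb9 was at 15.5 ± 0.408 CPM with CD1530 and 3.92 ± 0.464 CPM with AGN (log2FC 1.98), Hoxa9 at 2.51 ± 0.461 CPM with CD1530 and 1.07 ± 0.292 CPM with AGN (log2FC 1.23) and Hoxa10 at 4.18 ± 0.379 CPM with CD1530 and 2.86 ± 0.287 CPM with AGN (log2FC 0.54), all at low levels. Hoxa10 was not called without AGN replicate 3 (adjusted p 0.053). Hoxa13, the last gene of its cluster, was the member that was lower (0.563 ± 0.244 against 2.14 ± 0.441 CPM, log2FC -1.93).

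Counted by cluster, a grouping chosen after the values were seen, the HoxB cluster had 10 of 10 genes higher with a median of 2.15. HoxA had 8 of 11 higher and 1 lower (median 1.23), and HoxC had 7 of 9 higher (median 1.14). In HoxD none of 8 genes was called, and their log2 fold changes ran from -0.26 to 0.33 with a median of -0.09. Hoxd8, the most abundant HoxD gene with CD1530, was at 14.6 ± 1.72 CPM with CD1530 and 15.7 ± 0.597 CPM with AGN. Whether the clusters differ from each other was not tested, and neighbouring genes of a cluster are not independent. Of 9 cofactors that bind DNA with Hox proteins, 5 were higher and 1 lower (median 0.18). Meis2 read 104.6, 101 and 107 CPM in the CD1530 libraries and 10.1, 8.43 and 10.6 CPM in the AGN libraries (log2FC 3.43 ± 0.09, adjusted p 1.31e-28), with no overlap. Pbx2 (log2FC 0.44) was moderately higher, Meis1 was called at a log2FC of 0.21, and Pknox2 was lower (log2FC -0.57). Meis1 was not called without AGN replicate 3 (adjusted p 0.0617).

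**Figure D3:**
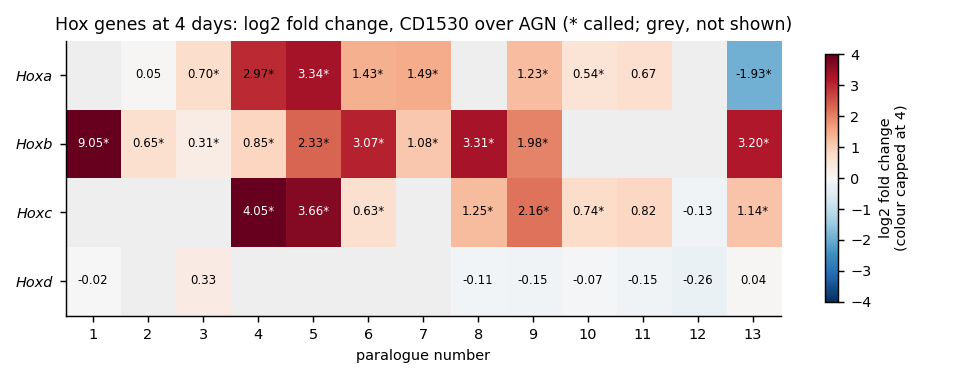
Log2 fold change of each Hox gene, CD1530 over AGN at 4 days, with the cluster in rows and the paralogue number in columns. Stars mark called genes, grey fields are positions without a gene or genes not shown here, and the colour is capped at 4. The HoxB row is positive throughout and the HoxD row stays between -0.26 and 0.33 with no star.

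Cartilage genes formed the other large block. Of 8 cartilage collagens 6 were lower with CD1530 and 2 higher (median -3.11), and of 14 further cartilage matrix genes 13 were lower and 1 higher (median -3.25). Col2a1, the main fibrillar collagen of cartilage, read 141, 146 and 149.7 CPM in the CD1530 libraries and 2545, 2529 and 2418 CPM in the AGN libraries (log2FC -4.10 ± 0.05, adjusted p 2.72e-42). Acan, the proteoglycan aggrecan that gives cartilage its stiffness, read 3.99, 5.34 and 4.67 CPM in the CD1530 libraries and 203, 227 and 216 CPM in the AGN libraries (log2FC -5.53 ± 0.09, adjusted p 1.33e-37). In both genes the 3 AGN libraries agreed closely and stood far above CD1530, which for Acan was still above the PM level of 1.07 ± 0.0173 CPM.

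The partners of these molecules were lower with them. Col9a3, a chain of the collagen that coats type II fibrils, was at 16.9 ± 1.12 CPM with CD1530 and 383 ± 10.9 CPM with AGN (log2FC -4.496). Col11a2, a chain of the collagen at the core of those fibrils, was at 3.56 ± 0.808 CPM with CD1530 and 68.0 ± 0.995 CPM with AGN (log2FC -4.25). Hapln1, the link protein that ties aggrecan to hyaluronan, was at 0.862 ± 0.310 CPM with CD1530 and 38.9 ± 0.891 CPM with AGN (log2FC -5.49), and Chad, a leucine-rich protein that binds chondrocytes to collagen, at 3.86 ± 0.259 CPM with CD1530 and 108 ± 5.09 CPM with AGN (log2FC -4.80). Clec3a, a lectin of cartilage, was near the floor with CD1530, at 3, 1 and 4 counts (0.144 ± 0.0852 CPM). With AGN it was at 16.7 ± 1.08 CPM (log2FC -6.81). Cytl1, a secreted factor found in cartilage, was at the floor in all CD1530 libraries and at 6.52 ± 1.51 CPM with AGN, an AGN over CD1530 ratio of 364 (64.9 to 14433). The exceptions were Col27a1 (127 ± 3.06 against 76.7 ± 1.89 CPM, log2FC 0.73), Col10a1, which was low in both conditions (3.47 ± 0.416 against 1.48 ± 0.0955 CPM, log2FC 1.23), and Cilp2, a matrix protein of the cartilage intermediate layer (11.7 ± 0.0854 against 3.34 ± 0.451 CPM, log2FC 1.81).

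Of 12 regulators of cartilage and bone, 10 were lower and 1 higher (median -1.29). Sox9, the master factor of chondrocytes, read 69.4, 70.7 and 66.9 CPM in the CD1530 libraries and 151, 144 and 133 CPM in the AGN libraries (log2FC -1.05 ± 0.05, adjusted p 2.97e-21). Its partner Sox6 read 6.21, 5.78 and 5.34 CPM with CD1530 and 32.2, 30.5 and 34.9 CPM with AGN (log2FC -2.49 ± 0.11, adjusted p 2.44e-22). Both pairs of groups were apart, and the separation was wider for Sox6 than for Sox9. Runx2, needed for bone and for the late growth of chondrocytes, was at 13.6 ± 0.727 CPM with CD1530 and 42.3 ± 0.855 CPM with AGN (log2FC -1.64), and Trps1, a repressor in growth plate cartilage, at 45.9 ± 2.93 CPM with CD1530 and 142 ± 4.27 CPM with AGN (log2FC -1.63). Runx1 was the member that was higher (92.4 ± 3.23 against 60.6 ± 2.03 CPM, log2FC 0.61).

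**Figure D4:**
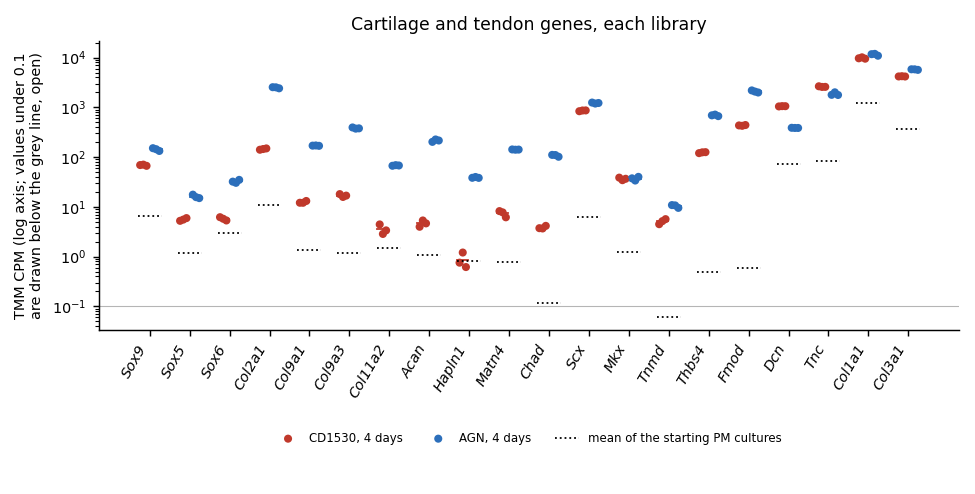
Level of 20 cartilage and tendon genes in each library at 4 days, as TMM CPM on a log axis, drawn as for the retinoid genes. The AGN libraries (blue) lie above the CD1530 libraries (red) for Col2a1, Acan, Hapln1, Chad and Col1a1, of which Col1a1 was not called. Mkx was not called either.

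Enzymes that build and sulfate chondroitin, the sugar chain of aggrecan, did not follow the core proteins. Of 19 such genes 7 were higher and 9 lower, with a median of -0.09. The 4-O-sulfotransferase Chst11 was higher at 94.1 ± 1.73 CPM with CD1530 and 39.4 ± 2.37 CPM with AGN (log2FC 1.25), as were the chain-starting transferase Csgalnact1 (log2FC 1.11) and Chst15 (log2FC 0.66). Papss2, which makes the sulfate donor, was lower at 26.0 ± 1.94 CPM with CD1530 and 53.6 ± 1.61 CPM with AGN (log2FC -1.04), with Chsy3 (log2FC -1.12) and Ugdh (log2FC -0.62), which supply polymer and precursor.

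Of 15 factors of the sclerotome (the part of the somite that gives cartilage and tendon) and of other somite parts, 10 were lower and 4 higher (median -0.43). Pax1 was at 7.70 ± 0.704 CPM with CD1530 and 16.8 ± 1.21 CPM with AGN (log2FC -1.13), its relative Pax9 at 6.29 ± 0.498 CPM with CD1530 and 16.1 ± 0.761 CPM with AGN (log2FC -1.35), and Nkx3-2, which they induce, at 5.73 ± 0.427 CPM with CD1530 and 16.2 ± 0.485 CPM with AGN (log2FC -1.50). Meox2 was lower as well (log2FC -1.86), while Ebf3 (log2FC 1.05), Ebf2 (log2FC 0.99) and the somite epithelium factor Tcf15 (18.2 ± 0.718 against 10.1 ± 0.808 CPM, log2FC 0.85) were higher. The homeobox genes of the Dlx, Msx, Alx and Barx families split by gene. Of 12, 4 were higher and 5 lower, and the median of 0.64 had the opposite sign to the largest changes. Dlx5 (5.03 ± 0.547 against 58.8 ± 0.857 CPM, log2FC -3.54), Dlx1 (0.805 ± 0.222 against 9.78 ± 0.477 CPM, log2FC -3.59) and Dlx2 (1.46 ± 0.201 against 9.62 ± 0.556 CPM, log2FC -2.71) were lower, Alx4 was lower at a log2FC of -2.40, and the genes that were higher, among them Dlx3 (3.30 ± 0.696 against 0.954 ± 0.210 CPM), were all rare.

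Genes of tendon were not higher as a group. Of 10 tendon regulators and markers 3 were higher and 6 lower (median -0.49). Scx read 838, 866 and 869 CPM in the CD1530 libraries and 1249.9, 1194 and 1225 CPM in the AGN libraries (log2FC -0.51 ± 0.04, adjusted p 1e-14), so it was abundant in both conditions and lower with CD1530. Thbs4, a thrombospondin of tendon matrix, read 120.4, 125 and 126 CPM in the CD1530 libraries and 692, 716 and 668 CPM in the AGN libraries (log2FC -2.48 ± 0.05, adjusted p 5.55e-32). Fmod, a small proteoglycan that guides fibril growth, read 434, 427 and 442 CPM in the CD1530 libraries and 2192, 2078 and 1991 CPM in the AGN libraries (log2FC -2.27 ± 0.06, adjusted p 2.95e-24). Both of these matrix genes were several times more abundant with AGN in every library. Higher with CD1530 were Dcn (log2FC 1.45), the mechanically induced factor Egr1 (184 ± 1.41 against 117 ± 4.05 CPM, log2FC 0.65) and the tendon and connective tissue glycoprotein Tnc (2605 ± 43.2 against 1857 ± 131 CPM, log2FC 0.49). Mkx, a homeobox factor of tendon, was not called, with 36.7 ± 2.15 CPM with CD1530 and 37.2 ± 3.14 CPM with AGN (log2FC -0.02 ± 0.08, adjusted p 0.869).

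Of 10 collagens of tendon fibrils 2 were higher and 6 lower (median -0.40). Col1a1, the most abundant collagen gene, was not called although every AGN library was above every CD1530 library (9785 ± 320.4 against 11516 ± 519 CPM, log2FC -0.24 ± 0.10, adjusted p 0.0532). That result depends on the test, since DESeq2 called it lower at an adjusted p of 0.00993, and edgeR did so with DESeq2 size factors (0.0355), without the robust option (0.0184) and on the 6 compared libraries alone (1.43e-07). Col24a1 (log2FC -1.58), Col16a1 (log2FC -0.88) and Col14a1 (154 ± 1.17 against 244 ± 9.71 CPM, log2FC -0.66) were lower, while Col5a3 (log2FC 0.69) and Col12a1, a fibril-associated collagen of loaded tissue (401 ± 12.8 against 290.2 ± 21.4 CPM, log2FC 0.47), were higher. Col12a1 was not called when CD1530 replicate 1 (adjusted p 0.0641) or AGN replicate 1 (adjusted p 0.0879) was left out. Basement membrane and microfibril collagens parted by type for most chains. Col6a5, a rare type VI chain at the floor with AGN, went against this, with a CD1530 over AGN ratio of 3.99 (1.31 to 16.2). Of 9 type IV, type VI and related chains 5 were higher and 3 lower (median 0.25): the type IV chain Col4a5 (log2FC 0.78), Col18a1 (log2FC 0.37) and Col4a1 (3232 ± 1.93 against 2653 ± 65.5 CPM, log2FC 0.29) were higher, and the type VI chains Col6a3 (log2FC -0.72), Col6a2 (log2FC -0.63) and Col6a1 (log2FC -0.55) lower.

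The small leucine-rich proteoglycans, which bind collagen fibrils and growth factors, went both ways. Of 11, 3 were higher and 6 lower (median -1.05). Dcn (decorin) read 1045, 1059.9 and 1057 CPM in the CD1530 libraries and 389, 386 and 386 CPM in the AGN libraries (log2FC 1.45 ± 0.05, adjusted p 4.17e-23). Bgn (biglycan), its closest relative, read 1301, 1309.7 and 1277 CPM in the CD1530 libraries and 2758, 2725 and 2595 CPM in the AGN libraries (log2FC -1.05 ± 0.05, adjusted p 4.1e-18). The pair thus differed in opposite directions, each without overlap. Ogn (219 ± 3.31 against 106 ± 3.32 CPM, log2FC 1.04) and Podn (14.05 ± 0.300 against 5.48 ± 0.362 CPM, log2FC 1.36) were higher, and Prelp (9.81 ± 0.103 against 39.6 ± 2.48 CPM, log2FC -2.01) was lower with Fmod and Chad.

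Of 18 matricellular genes, which modulate rather than build the matrix, 6 were higher and 11 lower (median -0.81). Postn (periostin) read 1897, 1886 and 1937 CPM in the CD1530 libraries and 6844, 6746 and 6451 CPM in the AGN libraries (log2FC -1.81 ± 0.08, adjusted p 4.15e-15). Among genes differing at least 2-fold, this was the largest difference in absolute level with AGN above CD1530. Vcan, the large proteoglycan versican, was at 812 ± 28.5 CPM with CD1530 and 1637 ± 102 CPM with AGN (log2FC -1.01), Thbs2 at 509 ± 7.26 CPM with CD1530 and 1614 ± 42.7 CPM with AGN (log2FC -1.67) and Smoc2 at 49.0 ± 2.56 CPM with CD1530 and 229.6 ± 4.94 CPM with AGN (log2FC -2.23). Spon1 (168 ± 0.889 against 49.6 ± 1.85 CPM, log2FC 1.76), Spon2 (log2FC 1.74) and Sparcl1 (496 ± 4.97 against 229 ± 5.70 CPM, log2FC 1.11) were higher. Of 21 genes for elastic fibres and crosslinking, 7 were higher and 12 lower (median -0.31). Eln, the precursor of elastin, read 1544, 1574 and 1596 CPM in the CD1530 libraries and 653, 626 and 617 CPM in the AGN libraries (log2FC 1.31 ± 0.04, adjusted p 4.66e-26), with the CD1530 libraries all above the AGN libraries. The crosslinking enzyme Lox (1837 ± 4.41 against 1038 ± 14.5 CPM, log2FC 0.82), Ltbp2 (log2FC 1.09) and the rarer Mfap5 (7.04 ± 0.523 against 1.28 ± 0.0757 CPM, log2FC 2.46) were higher, and Ltbp1 (log2FC -0.88), Fbln2 (log2FC -0.84) and Fbln5 (log2FC -0.79) lower.

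Of 20 matrix proteases and inhibitors 5 were higher and 7 lower (median -0.01). The membrane-type protease Mmp15 (121 ± 1.97 against 30.4 ± 1.86 CPM, log2FC 2.00), Adamts1 (log2FC 0.98) and Mmp9 (log2FC 0.76) were higher. The gelatinase Mmp2 (1033 ± 1.95 against 1305 ± 41.2 CPM, log2FC -0.34), the aggrecanase Adamts5 (log2FC -0.66), Mmp28 (log2FC -0.79) and the collagenase Mmp13, which was rare (1.53 ± 0.358 against 4.80 ± 0.962 CPM, log2FC -1.65), were lower. Genes of collagen folding and export in the endoplasmic reticulum were lower as a block, 20 of 27 against 2 higher, with a small median of -0.27. The collagen chaperone Serpinh1 was at 2594 ± 28.0 CPM with CD1530 and 3224 ± 32.7 CPM with AGN (log2FC -0.31), and the prolyl hydroxylase subunits P4ha2 (log2FC -0.87) and P4hb (log2FC -0.59) and the lysyl hydroxylase Plod1 (log2FC -0.67) were lower. The exceptions were P3h2 (log2FC 1.29) and Creb3l1 (log2FC 0.67), a membrane-bound factor that drives secretion of collagen.

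All cultures received SAG, yet targets of the hedgehog pathway differed. Of 17 hedgehog genes 5 were higher and 9 lower with CD1530 (median -0.25). The readouts of the pathway were on the lower side. Gli1 read 48.2, 46.0 and 48.2 CPM in the CD1530 libraries and 78.3, 86.8 and 71.9 CPM in the AGN libraries (log2FC -0.73 ± 0.07, adjusted p 2.22e-12). Ptch1 (226 ± 6.21 against 447 ± 19.7 CPM, log2FC -0.98) and Hhip (47.6 ± 1.96 against 129.8 ± 2.02 CPM, log2FC -1.45), feedback inhibitors that the pathway induces, were also lower. The co-receptors Gas1 (79.8 ± 5.25 against 33.2 ± 1.63 CPM, log2FC 1.26) and Cdon (log2FC 0.48) and the repressor-forming factor Gli3 (54.1 ± 2.02 against 30.4 ± 2.34 CPM, log2FC 0.83) were higher.

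TGFβ1 was also in both media. Of 18 genes of that pathway 10 were higher and 3 lower, with small differences (median 0.17). The ligands Tgfb2 (80.8 ± 0.760 against 42.9 ± 1.47 CPM, log2FC 0.91), Tgfb3 (log2FC 0.40) and Tgfb1 (log2FC 0.18) and the mediator Smad3 (114 ± 3.44 against 72.5 ± 1.20 CPM, log2FC 0.65) were higher. The receptor Tgfbr1 (log2FC -0.21) and the inhibitory genes Tgif1 (log2FC -0.42) and Ldlrad4 (log2FC -0.48) were the 3 lower members. The inhibitors Smad7, Skil, Ski and Pmepa1, also in the list, were not called lower. Of 27 BMP and GDF pathway genes 7 were higher and 12 lower (median -0.24). The ligands Bmp4 (69.7 ± 1.16 against 179 ± 4.01 CPM, log2FC -1.36) and Bmp5 (10.3 ± 0.532 against 48.2 ± 0.928 CPM, log2FC -2.23) were lower, and so were the secreted antagonists Chrdl1 (46.5 ± 1.64 against 322 ± 12.6 CPM, log2FC -2.79) and Sostdc1 (0.451 ± 0.327 against 11.2 ± 0.820 CPM, log2FC -4.62). Higher were Bmp6 (log2FC 0.69), Gdf10 (log2FC 0.53) and Bmp2 (log2FC 0.43).

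Of 26 FGF pathway genes 8 were higher and 13 lower (median -0.26). The largest differences were in ligands of the early embryo. Fgf5 (1.14 ± 0.312 against 25.9 ± 0.189 CPM, log2FC -4.49), Fgf8 (0.328 ± 0.172 against 6.52 ± 0.785 CPM, log2FC -4.31) and Fgf4 (5.43 ± 0.320 against 32.5 ± 1.76 CPM, log2FC -2.58) were all lower with CD1530. Fgfr1, the main receptor, was slightly lower (409 ± 5.36 against 553 ± 5.67 CPM, log2FC -0.43), while Fgfr3 (log2FC 1.12) and the feedback inhibitors Spry1 (116 ± 1.71 against 65.6 ± 1.39 CPM, log2FC 0.82) and Spry4 (log2FC 0.52) were higher. Of 42 Wnt pathway genes 13 were higher and 19 lower (median -0.11). The genes that differed most were ligands on the higher side and secreted inhibitors on the lower side. Wnt4 read 27.9, 30.0 and 26.4 CPM in the CD1530 libraries and 1.56, 1.75 and 1.604 CPM in the AGN libraries (log2FC 4.10 ± 0.16, adjusted p 2.01e-24). Wnt9a (74.1 ± 2.30 against 18.1 ± 1.71 CPM, log2FC 2.03) and Wnt7b (15.2 ± 1.49 against 4.04 ± 0.471 CPM, log2FC 1.91) followed it. Sfrp1 (92.0 ± 4.27 against 323 ± 8.77 CPM, log2FC -1.81), Dkk1 (1.92 ± 0.208 against 6.97 ± 0.860 CPM, log2FC -1.86) and Notum (log2FC -1.32) were lower. Axin2, a feedback target of the pathway, was at 15.8 ± 2.02 CPM with CD1530 and 10.5 ± 0.687 CPM with AGN (log2FC 0.59), with 162 ± 7.25 CPM in PM.

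Of 18 Notch pathway genes 5 were higher and 5 lower (median 0.06). Leaving out CD1530 replicate 2, or replicate 1 or 2 of AGN, reduced the lower ones to 3. Notch4 (41.4 ± 1.31 against 15.5 ± 1.18 CPM, log2FC 1.42), the ligand Dll1 (log2FC 1.04) and the target Heyl (72.6 ± 1.74 against 27.3 ± 1.66 CPM, log2FC 1.41) were higher. The related targets Hey1 (8.56 ± 0.823 against 22.5 ± 0.676 CPM, log2FC -1.39) and Hey2 (log2FC -0.77) and the Hes1 inhibitor Hes6 (log2FC -0.86) were lower, and Notch1 itself was not called (124 ± 4.37 against 115 ± 2.71 CPM, log2FC 0.12 ± 0.11, adjusted p 0.426). Of 16 genes of the IGF pathway 5 were higher and 5 lower (median 0.01). Igfbp5, a binding protein of these growth factors, read 11014, 10639 and 11155 CPM in the CD1530 libraries and 4061, 4131 and 4007 CPM in the AGN libraries (log2FC 1.43 ± 0.09, adjusted p 6.63e-13). Among genes differing at least 2-fold, this was the largest difference in absolute level with CD1530 above AGN. The growth factors were on the other side, Igf2 at 674 ± 16.7 CPM with CD1530 and 1508 ± 93.8 CPM with AGN (log2FC -1.16) and Igf1 at 127 ± 3.03 CPM with CD1530 and 288 ± 4.16 CPM with AGN (log2FC -1.18). Pappa2, a protease that frees them from binding proteins, was at 1.19 ± 0.422 CPM with CD1530 and 15.9 ± 1.37 CPM with AGN (log2FC -3.72), while Igfbp6 (log2FC 1.65) and the relative Igfbpl1 (log2FC 1.68) were higher.

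Igf2 is also imprinted, and of 14 imprinted growth genes 10 were lower and 2 higher (median -0.42). Nnat (115 ± 3.28 against 312 ± 2.14 CPM, log2FC -1.44), Zim1 (log2FC -0.84) and the noncoding H19 (515 ± 5.92 against 678 ± 21.8 CPM, log2FC -0.40) were lower. Peg10, a gene derived from a retrotransposon, was higher (396 ± 9.21 against 119 ± 3.52 CPM, log2FC 1.74), as was Ndn (log2FC 0.18). Of 18 tyrosine kinase receptors of mesenchyme and their ligands 6 were higher and 8 lower (median -0.09). Pdgfra, a marker of mesenchymal progenitors, was at 176 ± 4.97 CPM with CD1530 and 307 ± 2.36 CPM with AGN (log2FC -0.81), and Erbb4 (2.09 ± 0.267 against 8.35 ± 0.590 CPM, log2FC -1.99) and Ror1 (log2FC -1.004) were lower with it. Ntrk3, the receptor of neurotrophin-3, was at 24.8 ± 1.35 CPM with CD1530 and 2.31 ± 0.345 CPM with AGN (log2FC 3.43), and Kit (52.6 ± 0.818 against 13.7 ± 1.41 CPM, log2FC 1.94) and Egfr (log2FC 0.73) were higher.

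Factors of lateral plate and connective tissue were more often higher, 11 of 17 against 4 lower (median 1.32). Wt1, a zinc finger factor of mesothelium and kidney, read 10.3, 11.1 and 8.15 CPM in the CD1530 libraries and 0.625, 0.301 and 0.238 CPM in the AGN libraries (log2FC 4.66 ± 0.39, adjusted p 6.04e-11). Osr1, a factor of lateral and intermediate mesoderm and connective tissue, read 37.3, 36.5 and 41.2 CPM in the CD1530 libraries and 6.13, 7.41 and 7.49 CPM in the AGN libraries (log2FC 2.45 ± 0.13, adjusted p 4.49e-19). Both were low in PM, at 1.06 ± 0.595 and 0.442 ± 0.0719 CPM. The T-box repressor Tbx2 was higher at 111 ± 3.27 CPM with CD1530 and 27.9 ± 3.37 CPM with AGN (log2FC 1.99), whereas Prrx1 (71.5 ± 2.47 against 161 ± 6.68 CPM, log2FC -1.17), Prrx2 (log2FC -0.94) and Tbx1 (log2FC -1.27) were lower. Of 9 genes of dermomyotome and muscle 4 were higher and 3 lower, with a median of -0.63 (-0.13 with floor genes at their bound), and 5 were lower without CD1530 replicate 3. Pax3, which marks muscle progenitors, was at 1.28 ± 0.445 CPM with CD1530 and 0.428 ± 0.254 CPM with AGN (log2FC 1.57) and Des at a log2FC of 0.45, and Eya1 was lower (17.5 ± 1.67 against 37.0 ± 1.03 CPM, log2FC -1.08).

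Genes of the earlier embryo were measurable at 4 days and were split by condition. Of 20 genes of tailbud and presomitic mesoderm 6 were higher and 9 lower (median -0.34). T (Brachyury), the mesoderm factor of the primitive streak and notochord, read 0.455, 0.660 and 0.393 CPM in the CD1530 libraries and 27.7, 27.1 and 26.6 CPM in the AGN libraries (log2FC -5.74 ± 0.14, adjusted p 1.21e-31), and PM was at 79.0 ± 4.01 CPM. Evx1 was lower with it (3.26 ± 0.588 against 28.7 ± 1.31 CPM, log2FC -3.14). Cdx1, a caudal factor that is a known retinoid target, was higher instead. It read 9.50, 9.08 and 7.70 CPM in the CD1530 libraries and 0, 0.0602 and 0.178 CPM in the AGN libraries, with AGN at the floor, and a ratio of 109 (42.2 to 400.2), and PM was at 33.4 ± 1.12 CPM. The Wnt target Sp5 was called higher at a log2FC of 0.46 and had been at 221 ± 8.14 CPM in PM. It was not called without CD1530 replicate 1 (adjusted p 0.0705).

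Of 11 genes of the Nodal pathway and the primed epiblast 9 were lower and 2 higher (median -1.72). Otx2, a head and epiblast factor, read 0.758, 0.881 and 1.57 CPM in the CD1530 libraries and 39.4, 39.9 and 44.5 CPM in the AGN libraries (log2FC -5.28 ± 0.12, adjusted p 8.63e-32). Cer1, a secreted Nodal antagonist, was near the floor with CD1530, at 3, 4 and 3 counts (0.180 ± 0.0357 CPM). With AGN it was at 10.4 ± 1.28 CPM (log2FC -5.81). The antagonists Lefty2 (62.4 ± 2.88 against 17.3 ± 0.542 CPM, log2FC 1.85) and Lefty1 (69.7 ± 1.79 against 32 ± 1.40 CPM, log2FC 1.12), which Nodal signalling also induces, were the members that were higher. Of 15 genes of core pluripotency 8 were higher and 5 lower (median 0.22). Pou5f1 was lower at 26.6 ± 1.59 CPM with CD1530 and 149 ± 3.23 CPM with AGN (log2FC -2.49), with Utf1 (log2FC -1.69) and Klf4 (log2FC -1.02), and Tbx3 (log2FC 1.65), Dppa2 (log2FC 1.597) and Tfcp2l1 (log2FC 0.99) were higher. All 14 tested members of the 2-cell-like list, genes active in a small fraction of embryonic stem cells, were higher. Their fitted median of 7.72 rests on AGN libraries at the floor and became 3.84 with those genes at their bound. Zscan4c read 7.53, 6.99 and 5.90 CPM in the CD1530 libraries and 0, 0.0602 and 0 CPM in the AGN libraries, a ratio of 338 (60.3 to 13377). Zscan4d read 6.36, 6.93 and 7.31 CPM in the CD1530 libraries and 0, 0 and 0 CPM in the AGN libraries, which against 3 counts in each AGN library is at least 37.7-fold higher. Copies of these families are near-identical, so how their reads were shared among copies is uncertain, and their levels were low in both conditions.

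Neural genes were higher with CD1530. Of 17 neural and neuronal genes 15 were higher and 1 lower (median 3.34), and the summed level of the list was 260.2 to 271 CPM with CD1530 and 121 to 126 CPM with AGN. Sox1, a factor of the early neural plate, read 14.2, 15.96 and 17.9 CPM in the CD1530 libraries and 0.5002, 0.422 and 0.178 CPM in the AGN libraries (log2FC 5.43 ± 0.24, adjusted p 2.39e-22). Pax6, of neural progenitors, read 9.75, 10.9 and 10.7 CPM in the CD1530 libraries and 0.250, 0.422 and 0.416 CPM in the AGN libraries (log2FC 4.82 ± 0.24, adjusted p 9.26e-21). In both genes no library of CD1530 came near the AGN values. Chrna3, a nicotinic receptor subunit, was at 7.58 ± 0.597 CPM with CD1530 and at the floor with AGN, with a ratio of 374 (66.8 to 14813). Pou3f2, a neuronal factor outside the list, was at 9.22 ± 1.47 CPM with CD1530 and 0.201 ± 0.0878 CPM with AGN (log2FC 5.47), and Rfx4, a factor of neural progenitors, was at 7.92 ± 0.450 CPM with CD1530 and at the floor with AGN, a ratio of 55.9 (26.9 to 139.7). Stmn2 was the list member that was lower (11.5 ± 0.344 against 18.1 ± 0.941 CPM, log2FC -0.65).

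Of 8 genes of neural crest and glia 5 were higher and 1 lower (median 1.28), and their summed level was 275 to 279 CPM against 86.1 to 89.5 CPM. Most of that sum was Ngfr, a neurotrophin receptor that other mesenchyme also expresses (236 ± 1.69 against 66.0 ± 1.87 CPM, log2FC 1.84). The crest-defining factor Sox10 was at 1.77 ± 0.235 CPM with CD1530 and 0.805 ± 0.332 CPM with AGN (log2FC 1.12), and Ednrb at 20.4 ± 1.14 CPM with CD1530 and 5.73 ± 0.488 CPM with AGN (log2FC 1.83). How much of any other difference comes from neural cells was not tested. The guidance molecules of axons, which mesenchyme shares, were more often lower, 19 of 34 against 9 higher (median -0.41). Sema3c (52.8 ± 0.784 against 181 ± 4.89 CPM, log2FC -1.78), Unc5d (log2FC -2.35), Efna1 (log2FC -1.56) and Slit2 (log2FC -0.31) were lower, and Slit1 (16.7 ± 1.35 against 3.71 ± 0.405 CPM, log2FC 2.17), Efnb1 (229 ± 4.22 against 89.1 ± 3.798 CPM, log2FC 1.36) and Nrp1 (134 ± 3.801 against 55.6 ± 4.63 CPM, log2FC 1.27) higher.

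Of 10 surface epithelium markers 6 were lower and 4 higher (median -1.12), with a summed level of 378 to 389 CPM with CD1530 and 492 to 499 CPM with AGN. The keratins Krt8 (log2FC 0.38), Krt18 (log2FC 0.78) and Krt19 (log2FC 0.85) and Cldn4 (log2FC 0.47) were higher, and Grhl2 (2.48 ± 0.4995 against 9.67 ± 0.395 CPM, log2FC -1.95), Esrp1 (log2FC -1.93) and Cldn7 (log2FC -1.36), a regulator of epithelial identity, of epithelial splicing and a junction protein, were lower. Cadherins were mostly lower, 8 of 15 against 2 higher (median -0.36), with the epithelial Cdh1 (78.5 ± 1.06 against 173 ± 2.17 CPM, log2FC -1.14), Cdh3 (log2FC -1.05) and Cdh13 (log2FC -1.31) lower and the mesenchymal Cdh2 (119 ± 2.04 against 84.0 ± 1.81 CPM, log2FC 0.50) higher. Of 13 endothelial genes 3 were higher and 4 lower (median -0.08), summing to 280.3 to 298 and 356 to 375 CPM. Erg alone differed by more than these sums did. Kdr (45.3 ± 1.78 against 21.2 ± 1.29 CPM, log2FC 1.09) and Emcn (log2FC 1.24) were higher and Erg (43.9 ± 1.09 against 133 ± 0.880 CPM, log2FC -1.60), which cartilage precursors also express, lower, while the defining marker Pecam1 was not called (27.6 ± 2.84 against 28.9 ± 0.859 CPM, log2FC -0.06 ± 0.06, adjusted p 0.436).

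Of 12 endoderm genes 3 were higher and 3 lower, with a median of -0.30 (0.06 with floor genes at their bound) and sums of 152 to 157 and 165 to 173 CPM. Epcam, which the surface epithelium list also holds, was at 42.7 ± 1.16 CPM with CD1530 and 92.0 ± 1.27 CPM with AGN. It alone differed by more than these sums did. Foxa1 was higher (79.7 ± 1.34 against 16.1 ± 1.63 CPM, log2FC 2.31) and Foxa2 lower (4.28 ± 0.389 against 14.1 ± 1.22 CPM, log2FC -1.72), and the defining factor Sox17 was low at 4.49 ± 1.05 CPM with CD1530 and 2.67 ± 0.797 CPM with AGN (log2FC 0.75). Blood genes, 4 lower of 10 (median -0.45, -0.43 with bounds, and 1 to 2 lower without CD1530 replicate 1, CD1530 replicate 2 or AGN replicate 1), summed to 12.5 to 13.1 and 16.2 to 20.2 CPM, with the globin Hba-a1 at 0.815 ± 0.229 CPM with CD1530 and 1.11 ± 0.184 CPM with AGN and not called. Skeletal muscle genes, 2 higher and 2 lower of 7 (median -0.51, -0.32 with bounds, and 1 higher without CD1530 replicate 2 or 3 or AGN replicate 3), summed to 17.5 to 20.1 and 13.9 to 17.1 CPM, and the muscle factor Myog was near the floor (0.109 ± 0.113 against 0.261 ± 0.188 CPM). Genes of the starting PM, 3 higher and 4 lower of 10 (median -0.34), summed to 43.8 to 50.9 and 83.5 to 92.0 CPM, with Rspo3 (29.8 ± 1.96 against 40.0 ± 3.69 CPM) the largest contributor in both conditions. The sums of neural, crest and skeletal muscle genes were higher with CD1530, without overlap. For skeletal muscle the nearest libraries were at 17.5 and 17.1 CPM, and 5 of the 7 members had a negative log2FC. The sums of endothelial, endoderm, epithelial, blood and PM genes were higher with AGN, also without overlap. The gap between the endoderm sums was smaller than that of Epcam alone, and the gap between the endothelial sums smaller than that of Erg alone. The part of these sums in the other differences was not tested.

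All 19 genes of mitosis and spindle were lower with CD1530, each by less than 2-fold (median -0.42). Mki67 read 244, 220.1 and 237 CPM in the CD1530 libraries and 296, 333 and 310.1 CPM in the AGN libraries (log2FC -0.42 ± 0.14, adjusted p 0.0189). Nusap1 (66.8 ± 2.48 against 103 ± 3.03 CPM, log2FC -0.62), Birc5 (log2FC -0.56) and Aurka (log2FC -0.50), which act on the mitotic spindle, showed the largest differences. Mki67 was not called without replicate 2 of either condition (adjusted p 0.0677 in both fits). Of 24 genes of DNA replication and S phase 10 were lower and 2 higher (median -0.08), and 6 were lower without CD1530 replicate 3 or without AGN replicate 1. The call of Cdc45 as higher was lost without CD1530 replicate 1 or any AGN replicate (adjusted p 0.0507 to 0.199). The members included the helicase subunit Mcm2 at 211 ± 2.55 CPM with CD1530 and 226 ± 12.6 CPM with AGN (log2FC -0.10), E2f1 at a log2FC of -0.32, Ccne2 at a log2FC of -0.34, Gins2 at a log2FC of -0.27 and the loading factor Cdc6 at a log2FC of 0.30. Mcm2 was not called without replicate 2 or 3 of CD1530 or replicate 1 or 3 of AGN (adjusted p 0.0504 to 0.213). Among 13 D cyclins, inhibitors and Myc genes 7 were higher and 6 lower (median 0.37). The cyclin Ccnd1 read 319, 305 and 307 CPM in the CD1530 libraries and 135, 141 and 133 CPM in the AGN libraries (log2FC 1.19 ± 0.05, adjusted p 9.4e-24). The inhibitors Cdkn2b (244 ± 4.73 against 94.8 ± 4.18 CPM, log2FC 1.36) and Cdkn2a (245 ± 8.69 against 114 ± 0.209 CPM, log2FC 1.10) were higher with it, and Cdkn1b (65.1 ± 1.55 against 117 ± 5.89 CPM, log2FC -0.84), Cdkn2c (log2FC -1.03) and Cdkn1c (log2FC -0.27) lower.

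Of 14 immediate early genes, which respond to growth factors and stress within minutes, 8 were higher and Klf4 was lower (median 0.38). Jun was at 314 ± 2.72 CPM with CD1530 and 146 ± 1.83 CPM with AGN (log2FC 1.11), Fos at 20.8 ± 1.18 CPM with CD1530 and 14.3 ± 0.825 CPM with AGN (log2FC 0.54), Fosb at 6.64 ± 0.889 CPM with CD1530 and 1.24 ± 0.302 CPM with AGN (log2FC 2.42) and Atf3 at 10.83 ± 0.164 CPM with CD1530 and 5.37 ± 0.546 CPM with AGN (log2FC 1.01). Of 16 targets and factors of YAP and TEAD 7 were higher and 4 lower (median 0.10), with Ankrd1 (log2FC 0.71), Crim1 (log2FC 0.66) and Nuak2 (log2FC 0.63) higher and the standard target Ccn2 (313 ± 3.35 against 364 ± 6.84 CPM, log2FC -0.22) slightly lower. Of 14 contractile genes 4 were higher and 3 lower (median 0.02). Acta2, the actin of smooth muscle and myofibroblasts, was not called (664 ± 8.90 against 647 ± 6.45 CPM, log2FC 0.04 ± 0.04, adjusted p 0.518), Myh11 (log2FC 1.25), Tpm1 (log2FC 0.53) and Tpm2 (log2FC 0.40) were higher, and the cofactor Myocd was lower (log2FC -1.03). The 4 nuclear factor I genes differed little, Nfib (log2FC 0.36) and Nfia (log2FC 0.18) being higher and Nfix (log2FC -0.26) and Nfic (log2FC -0.11) lower. Nfia was not called without CD1530 replicate 3 (adjusted p 0.0514), nor Nfic without AGN replicate 1 (0.0525).

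Of 26 genes of glycolysis and the hypoxia response 5 were higher and 12 lower (median -0.07). The glucose transporters Slc2a3 (656 ± 0.421 against 337 ± 3.91 CPM, log2FC 0.96) and Slc2a1 (1145 ± 21.7 against 777 ± 13.9 CPM, log2FC 0.56) and the isomerase Gpi1 (log2FC 0.54) were higher. The hypoxia-induced genes Car9 (log2FC -1.14), Egln3 (112 ± 3.18 against 213 ± 2.74 CPM, log2FC -0.93) and Ankrd37 (log2FC -0.78) were lower. Of 20 genes of sterol and fatty acid synthesis 12 were higher and 2 lower (median 0.16), with the fatty acid synthase Fasn at 635 ± 8.85 CPM with CD1530 and 505 ± 18.6 CPM with AGN (log2FC 0.33) and the desaturase Scd2 (log2FC 0.33) differing by a like amount. Insig1 (log2FC -0.13) and Lss (log2FC -0.18) were lower.

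Some of the largest differences fell outside every list. Csn3, a milk casein, was at 11.3 ± 2.24 CPM with CD1530 and at the floor with AGN, with a ratio of 559 (100.05 to 22132). Slc26a7, an anion exchanger, was at 22.5 ± 2.05 CPM with CD1530 and 0.364 ± 0.0582 CPM with AGN (log2FC 5.92). On the other side, Vrtn, which is linked to the number of vertebrae, was at 0.181 ± 0.143 CPM with CD1530 and 18.4 ± 2.43 CPM with AGN (log2FC -6.63), the water channel Aqp1 at 2.28 ± 0.482 CPM with CD1530 and 86.9 ± 1.96 CPM with AGN (log2FC -5.24), the membrane oestrogen receptor Gper1 at 0.669 ± 0.147 CPM with CD1530 and 24.6 ± 1.01 CPM with AGN (log2FC -5.20) and Susd5 at 0.648 ± 0.124 CPM with CD1530 and 18.0 ± 2.14 CPM with AGN (log2FC -4.79). Among abundant genes, Dpysl3, a cytoskeletal protein of growth cones, was at 1298 ± 40.4 CPM with CD1530 and 422 ± 6.68 CPM with AGN (log2FC 1.62), the laminin chain Lama1 at 809.5 ± 14.5 CPM with CD1530 and 396 ± 33.8 CPM with AGN (log2FC 1.03) and the plasminogen activator Plat at 478 ± 6.68 CPM with CD1530 and 102 ± 2.99 CPM with AGN (log2FC 2.23). Penk, the precursor of enkephalin, read 43.6, 43.1 and 47.5 CPM in the CD1530 libraries and 1173, 1128 and 1095 CPM in the AGN libraries (log2FC -4.66 ± 0.07, adjusted p 1.61e-31), with the AGN libraries the higher ones.

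Whether the difference between the ligands was the same at 2.5 and 4 days was tested directly, as the log2 fold change at 4 days minus that at 2.5 days. This changed for 4591 genes (26.8%), of which 2181 (12.7%) became more positive and 2410 (14.1%) more negative. Which direction was the larger depended on the fit, since a fit of the libraries of both ligands on these 2 days alone called 3238 more positive and 2430 more negative. Of the 1031 genes called at least 2-fold higher at 4 days, 763 were already called higher at 2.5 days, 258 were not called then and 10 were called lower. For 411 of them the difference was larger at 4 days, for 43 it was smaller and for 577 no change was called. Of the 812 called at least 2-fold lower, 530 were already lower, 264 were not called and 18 were higher at 2.5 days, and the difference was larger for 459, smaller for 12 and without a called change for 341. AGN replicate 1 at 2.5 days held 38120841 counts, the deepest library of the series, and without it 4056 genes were called as changed.

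The counts below are to be read against 12.7% more positive and 14.1% more negative over all genes. Whether the groups differ from each other in this was not tested. Of 14 cartilage matrix genes 11 had become more negative and none more positive, as the median went from -1.19 to -3.25. Of 8 cartilage collagens 6 had become more negative and 1 more positive (-1.05 to -3.11). Of the 19 mitosis genes 17 had become more negative and none more positive, with a median of -0.03 at 2.5 days. Of 27 genes of folding and export 18 had become more negative and 2 more positive (-0.06 to -0.27). Of 18 matricellular genes 12 had become more negative and 1 more positive (-0.10 to -0.81). Of 17 neural genes 10 had become more positive and 2 more negative (0.61 to 3.34). Of 14 immediate early genes 9 had become more positive and 1 more negative (-0.01 to 0.38). Retinoid metabolism showed no common direction, with 5 more positive and 5 more negative (0.78 to 0.92). Of the 11 Nodal and epiblast genes 8 had become more negative and 1 more positive, while their median was -1.76 at 2.5 days and -1.72 at 4 days.

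Among single genes averaging 50 counts or more at 4 days and no overlap between the conditions, the difference grew most in favour of CD1530 for Nhlh2 (-0.14 at 2.5 days and 3.63 at 4 days, adjusted p of the change 5.1e-09) and Pou3f2 (1.91 and 5.47, 4.15e-06), both neuronal transcription factors. The neuronal microtubule protein Dcx (0.61 and 3.51), the neuronal RNA-binding protein Elavl4 (1.26 and 4.06) and the signalling adaptor Pik3ap1 (0.10 and 2.88) came next. In favour of AGN it grew most for Fgf8 (-0.31 and -4.31, 1.61e-09), Sostdc1 (-0.74 and -4.62), T (-2.18 and -5.74), Hapln1 (-1.96 and -5.49) and Susd5 (-1.43 and -4.79). For T the AGN mean was 9.31 CPM at 2.5 days and 27.1 CPM at 4 days. For Fgf8 it was 1.09 and 6.52 CPM, and for Hapln1 it was 9.08 and 38.9 CPM.

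**Figure D5:**
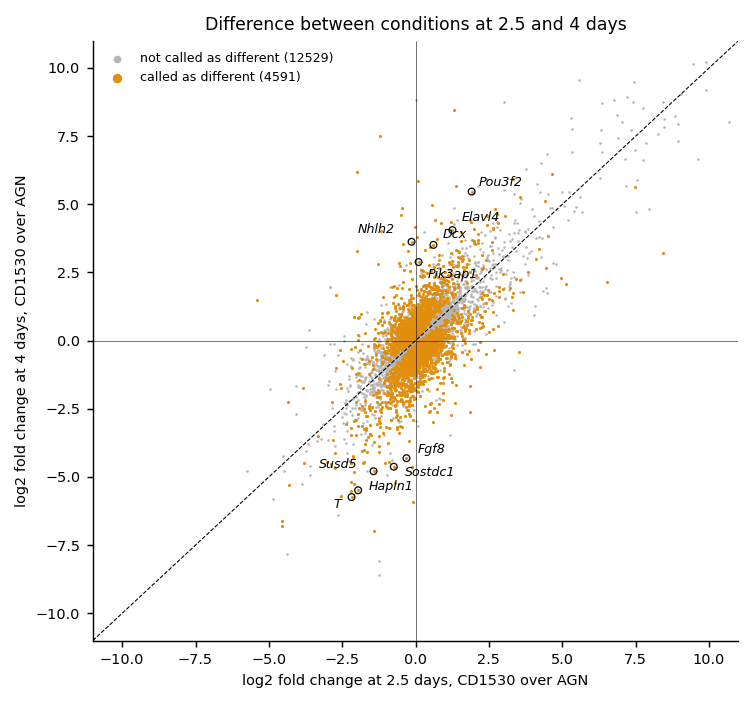
Log2 fold change of CD1530 over AGN for each of 17120 genes at 2.5 days (x) and 4 days (y), with 4591 genes whose difference changed between the days in orange, the other 12529 in grey, equality as a dashed line, and the named genes circled. Nhlh2 lies above the dashed line near 0 on the x axis, and Fgf8 and T lie below it.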

How the data were processed

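RNA sequencing of mouse cultures was read from 1 deposited table of counts per gene. The authors prepared libraries with an NEB kit, and the labels name STAR, featureCounts and edgeR without versions. The methods give GRCm38. Strand setting and treatment of multiply mapped reads are not given in the sources used here. The deposited counts are raw and cover 17120 genes. All gene identifiers matched GENCODE M21.

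All 33 libraries entered 1 fit with a mean per group, TMM scaling and edgeR's robust quasi-likelihood test (edgeR 4.0.16, limma 3.58.1, R 4.3.3), with Benjamini-Hochberg adjustment over all genes. The low count filter removed none. The common biological coefficient of variation was 4.68%. A gene with at most 3 counts in each library of a condition is called at the floor. Its fold is a ratio of summed counts with an exact 95% interval or, with all libraries at 0, a lower bound against 3 counts per library, and medians with bounds use that floor. Reads without molecular identifiers are not independent molecules, so floors and intervals cover counting error only. With 3 replicates, which the labels number but do not tie to cell lines, p-values measure the spread between these samples. Replicate pairs had a chi-square per gene of 1.59 to 2.49 and no identical columns. The smallest p that an exact permutation of 3 against 3 allows is 0.1, so no such test is given.

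Genes named are the 12 with the largest fold change in each direction, with no overlap and a mean of at least 50 counts, the 8 with the largest difference of mean CPM at 2-fold or more, the first and up to 3 called members per direction of each list, and the 5 per direction whose difference changed most from 2.5 days. The last of these had the same limits on counts and overlap as the first, and predicted genes were left out of both. Further genes were named after their values were seen. The comparison and the lists were chosen with earlier results of these data known, so lists are described by counts and medians. Listed genes outside the table were not tested. Some members counted in the lists are not reported here by name. Alternatives were DESeq2 1.42.0, its size factors, library size scaling, other filters, a fit without the robust option, a fit of the compared libraries only, glmTreat, the replicate number as a block and each library left out. The main fit was also run on data simulated from its own estimates, with few genes changed. Such data cannot show how the fit behaves with as many differences as were called here.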

Additional observations from a re-analysis of the deposited data

Results flagged for a closer look

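The difference between CD1530 and AGN was tested for change between 2.5 and 4 days, and for 4591 genes the log2 fold change at 4 days was not that at 2.5 days at an adjusted p under 0.05 in edgeR. The values that follow are the log2 fold change at 4 days minus that at 2.5 days, for genes averaging 50 counts or more at 4 days. Their SE is approximate, the absolute change divided by the square root of the test's F. It can be too small where a condition holds few counts. In favour of CD1530 the change was 3.76 ± 0.42 (SE) for Nhlh2, 3.56 ± 0.56 for Pou3f2, 2.91 ± 0.58 for Dcx, 2.80 ± 0.40 for Elavl4 and 2.78 ± 0.37 for Pik3ap1. In favour of AGN it was -4.0 ± 0.44 for Fgf8, -3.88 ± 0.50 for Sostdc1, -3.55 ± 0.24 for T, -3.53 ± 0.26 for Hapln1 and -3.36 ± 0.33 for Susd5. All 10 kept their call and direction when each library at 4 or 2.5 days was left out in turn. Groups of 3 libraries are too small to judge whether a single library is an outlier.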

How the results depend on the processing

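The count of called genes stayed within 1.5 times its value of 7980 under other scalings, filters and tests at the same threshold, from 7914 with the replicate block to 8712 of 16281 genes when only the 6 compared libraries were fitted, and ran from 7170 to 7283 when each library was left out. A test against a 2-fold difference (glmTreat) called 1009 genes, 579 higher and 430 lower, by construction a stricter question. The direction with more calls depended on scaling, 3640 higher and 4451 lower with DESeq2 size factors against 4450 and 3495 with library size, with a median over all genes of -0.04 and 0.02. Replicate numbers shared by the conditions did not mark pairs (correlation of deviations -0.0364 to 0.0105 for equal numbers), and the replicate block called 7914 genes, and 4511 for the change from 2.5 days. That change was called for 4028 to 4265 genes without single libraries and for 5668 when only the libraries of both days were fitted. Of named genes' fold changes, 4212 values kept their call, 37 lost it, 6 gained it and none reversed. Calls of Cdc45, Mcm2, Hbb-y, Tie1, Tek, Mylk and Actn3 were also lost without single libraries or under another scaling, and the cause was not tested. Depth limits genes near 3 counts, whose ratios have wide intervals.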
